A study of Mus musculus with 6 samples.

Results

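The BCL2 family decides at the outer mitochondrial membrane whether a cell starts the intrinsic path of apoptosis. Its pro-survival proteins bind and restrain the effectors BAX and BAK, which otherwise form pores that release cytochrome c. BH3-only proteins carry death signals by occupying the pro-survival proteins or by activating the effectors directly. Myeloid progenitors are known to depend on MCL1, and BCL2 and BCL-xL, the main product of Bcl2l1, are further survival factors of blood cells.

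The 10 members described here were taken by gene name from the table of 16440 genes, which held all 10, and all 10 were among the 14595 genes tested. They are the pro-survival genes Bcl2, Bcl2l1 and Mcl1, the effectors Bax and Bak1, and the BH3-only genes Bcl2l11 (BIM), Bid, Bad, Bbc3 (PUMA) and Pmaip1 (NOXA). The question was how these genes differ between leukemic and normal c-Kit+ progenitors of the mouse bone marrow (BM), and how the pro-survival members stand against the pro-death members.

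RNA sequencing covered 3 libraries of normal myeloid progenitors (MPs) and 3 of c-Kit+ acute promyelocytic leukemia (APL) progenitors, all from strain FVB N/J. The MPs were Lin-Sca-1-c-Kit+ BM cells, a gate that holds several kinds of progenitors including erythroid ones. The APL cells came from hMRP8-PML/RARα transgenic mice, in which the fusion gene is driven by a promoter active in the myeloid lineage. They carried GFP from the retroviral vector MigR1, had been expanded in syngeneic recipients and were sorted as GFP-labeled c-Kit+ cells. The groups therefore differ in sorting gate, retroviral labeling and transplantation as well as in leukemia. The study describes sublethal irradiation of the mice that first received the labeled cells, so irradiation of the host may be a further difference. The series describes the libraries of a group as biological replicates, but whether they came from separate leukemias is not stated, so p-values measure the spread between these libraries. Ages and treatments of the mice are not given in the labels.

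Values are scaled fragments, the deposited estimate of fragments per gene divided by a factor of each library, unless FPKM (fragments relative to transcript length and library depth) is named. Libraries held between 20608715 and 28382785 fragments before scaling. Differences were tested with limma over all genes, with Benjamini-Hochberg adjustment. A gene is said to rise or fall when its adjusted p was under 0.05, and it is called when its fold change was also over 1.5. Erythroid markers were called lower in APL progenitors for 8 of 8 genes tested, with summed levels of 1520 to 1994 FPKM in MPs and 13.9 to 25.2 FPKM in APL libraries. Of the other marker lists, 4 of 5 megakaryocyte genes and 2 of 2 eosinophil genes were called lower. Both directions were seen in neutrophil genes (2 lower and 2 higher of 7), monocyte genes (3 and 3 of 7), mast cell and basophil genes (3 and 1 of 5) and B cell genes (2 and 1 of 4), and 1 of 3 T cell genes was called lower. Gp6 and Cd3g were listed at 0 in every APL library and Cd3e in every MP library. None of these was tested, and each held at most 7 fragments before scaling in any library. Of 6 genes for the gate and the primary granules, 3 were called higher and 2 (Cd34 and Kit) lower. Cd34 fell from 94.5 ± 15.4 FPKM in MPs to 1.15 ± 0.110 in APL progenitors (SD, n = 3 each). Kit fell but stayed at 40.4 ± 0.623 FPKM (SD, n = 3) in APL progenitors. These shifts in marker levels move with every result below, and their part in the results was not tested. In bulk RNA, fewer cells of a type and less RNA per cell cannot be told apart.

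Of the 10 members, 1 (Bcl2) was called lower and 4 (Bcl2l1, Bax, Bbc3 and Pmaip1) were called higher in APL progenitors. Among all genes tested, 24.4% were called lower, 21.7% higher and 46.1% in either direction, so 5 of 10 is close to the share of genes at large. At the adjusted p alone 6 of 10 members passed, with Bid added, against 67.0% of all genes. The groups did not overlap for these 6 members, against 70.9% of genes. The median log2 fold change was 0.05 over the 10 members and −0.10 over all genes tested. What set the members apart from each other was the size and the direction of single changes, as the plot of values by library shows.

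**Figure D1:**
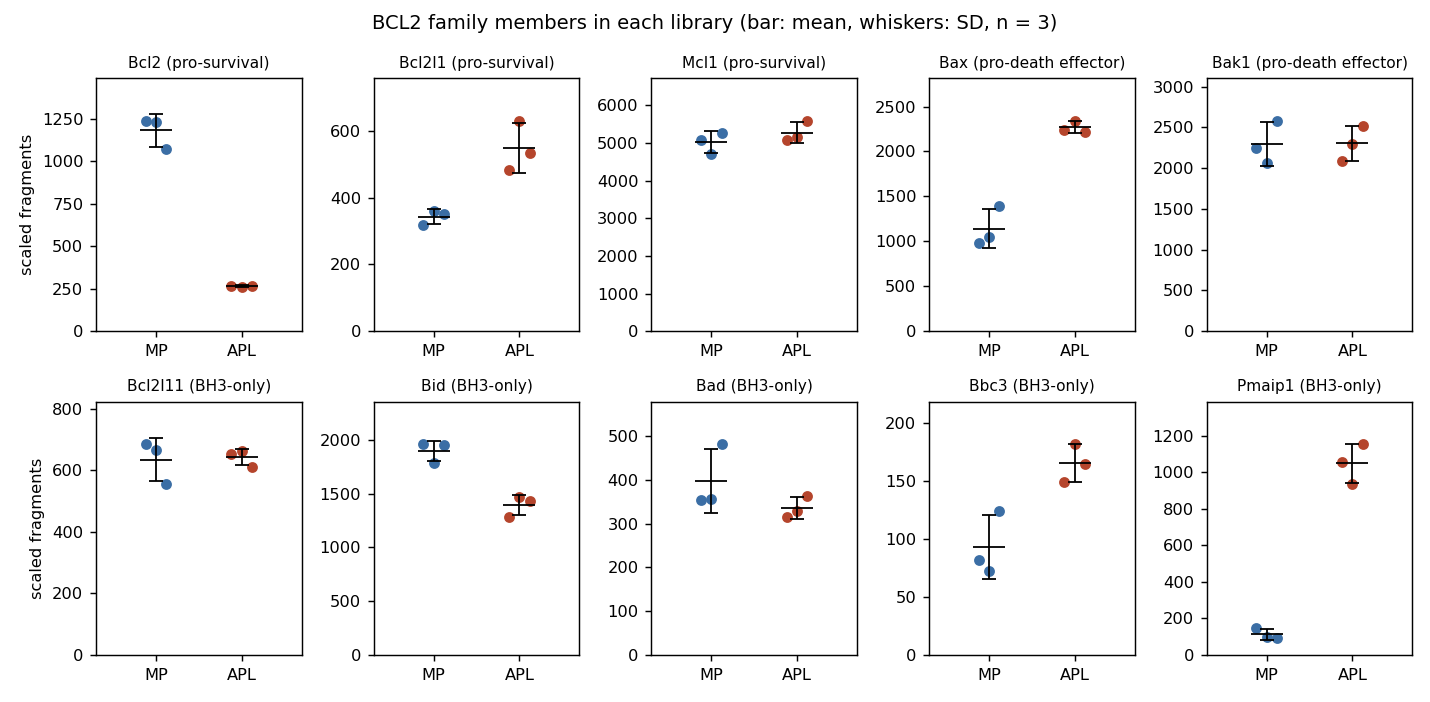
Scaled fragments (vertical axes, linear and starting at 0) of each member in the 3 MP and 3 APL libraries, with points for libraries, bars for means and whiskers for the SD. Bcl2 and Bid lie lower and Bax, Bbc3, Pmaip1 and Bcl2l1 lie higher in all 3 APL libraries, while Mcl1, Bak1, Bcl2l11 and Bad overlap.

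Among the pro-survival members, Bcl2 fell, Bcl2l1 rose and Mcl1 did not pass the test. Bcl2, the founding inhibitor of apoptosis (chr1:106538179-106714290, GRCm38), had 1240, 1234 and 1072 scaled fragments over MP replicates 1 to 3 against 269, 257 and 265 over APL replicates 1 to 3. Every APL value was far under the lowest MP value, and the APL libraries lay close together. Its log2 fold change was −2.16 ± 0.09 (SE), a 4.46-fold decrease (adjusted p = 1.4e-07, limma). Of all genes tested, 9.85% fell by more. For Bcl2 alone the deposited fragments and FPKM did not run in parallel, with 191 to 202 scaled fragments per FPKM in MP libraries and 139 to 158 in APL libraries. The APL to MP ratio of this quantity was 0.767 for Bcl2 and between 0.980 and 1.02 for the 9 other members. FPKM take the length of the transcripts into account, and how fragments were divided among Bcl2 transcripts was not tested. On the FPKM scale Bcl2 went from 6.07 ± 0.458 to 1.77 ± 0.144 (SD, n = 3 each).

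Promoter sequence was taken from RefSeq (GRCm38.p6), which held 15 windows for 9 of the 10 members, 4 members having more than 1. No window was held for Pmaip1. Each window is the 250 bases before a transcript start, read 5′ to 3′. The windows were searched on both strands for CCAAT boxes, E-boxes, cAMP response elements, GC boxes and matches to the p53 half-site consensus, and matches to different motifs did not overlap in the members' windows. The window of Bcl2 on the minus strand, chr1:106714291-106714540, is shown as that of the member that was called lower, with GC boxes in capitals.
Bcl2: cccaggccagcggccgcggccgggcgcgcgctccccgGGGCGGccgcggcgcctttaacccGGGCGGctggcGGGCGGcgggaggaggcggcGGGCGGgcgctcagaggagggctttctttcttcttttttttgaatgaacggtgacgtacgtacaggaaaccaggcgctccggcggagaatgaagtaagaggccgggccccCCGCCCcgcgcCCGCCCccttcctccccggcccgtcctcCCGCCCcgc
It held 7 GC boxes (GGGCGG) and had a GC content of 74.8%, against a median of 52.4% over all 32851 RefSeq windows of this length, of which 32.7% held a GC box. None of the 3 windows of Bcl2l1 and not the window of Bak1 held any of these motifs. CCAAT boxes stood in windows of Bcl2l11, Bad and Bbc3 and in 33.9% of all windows. The cAMP response element (TGACGTCA) stood in 1.55% of all windows and in none of the members'. A match is a match of letters only and describes no binding.

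Bcl2l1 (chr2:152780668-152831682), whose main product BCL-xL is a survival factor of erythroid cells and platelets, moved in the opposite direction. It had 317, 361 and 350 scaled fragments over MP replicates 1 to 3 against 484, 631 and 534 over APL replicates 1 to 3. All 3 APL values lay above all MP values, with APL library 2 the highest. This came to a log2 fold change of 0.67 ± 0.12 (SE) (adjusted p = 9.5e-04, limma), a 1.60-fold increase that is close to the 1.5-fold threshold. Without APL library 2 it was 0.57, and with libraries scaled to the same total 0.54, both under that threshold. Erythroid markers, of cells that use BCL-xL, were lower in the libraries where Bcl2l1 was higher. What part the mixture of cells has in the Bcl2l1 difference was not tested. Fragments were deposited per gene, so BCL-xL and the shorter pro-death product of Bcl2l1 are not separated.

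Mcl1 (chr3:95658721-95663178), a short-lived survival protein, was by far the most abundant of the 3 pro-survival transcripts in FPKM and exceeded 91.1% of genes in MPs. Its values were 5080, 4699 and 5277 scaled fragments over MP replicates 1 to 3 against 5073, 5157 and 5597 over APL replicates 1 to 3, and the groups overlapped. The log2 fold change was 0.07 with a 95% interval of −0.10 to 0.24 (adjusted p = 0.42, limma). This interval corresponds to between 0.933-fold and 1.18-fold, and the sign turned under quantile normalization (−0.04) and under scaling to the same total (−0.06).

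The effectors parted. Bax (chr7:45461695-45466898), which moves from the cytosol to mitochondria when activated, had 986, 1050 and 1392 scaled fragments over MP replicates 1 to 3 against 2242, 2344 and 2219 over APL replicates 1 to 3. MP library 3 was the highest of its group but still far under every APL library. Bax rose 2.01-fold, with a log2 fold change of 1.00 ± 0.12 (SE) (adjusted p = 9.0e-05, limma), and the log2 fold change ranged from 0.91 without MP library 1 to 1.15 without MP library 3 when 1 library was left out.

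The window before the Bax start, chr7:45466899-45467148 on the minus strand, is shown as that of the effector that was called higher. Capitals mark, from left to right, a match to the p53 half-site consensus and an E-box.
Bax: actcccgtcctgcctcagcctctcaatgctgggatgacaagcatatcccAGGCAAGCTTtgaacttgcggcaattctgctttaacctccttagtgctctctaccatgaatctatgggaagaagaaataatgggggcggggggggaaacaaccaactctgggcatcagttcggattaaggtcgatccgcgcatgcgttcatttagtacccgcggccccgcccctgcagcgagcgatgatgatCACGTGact
A p53 half-site match was found in 7.13% of all windows and, among the 15 windows of members, in that of Bax alone. Pmaip1 had no window and was not searched. An E-box (CACGTG) was found in 6.02% of all windows and, among those of members, in the window of Bax and in 1 of the 3 of Bbc3. The E-box of Bbc3, chr7:16310357-16310382 on the plus strand, is shown in capitals with the bases around it.
Bbc3: ggggcgggcgCACGTGgcggcgtcga

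Bak1 (chr17:27018035-27036378), the effector that resides on mitochondria, had 2244, 2058 and 2584 scaled fragments over MP replicates 1 to 3 against 2094, 2297 and 2517 over APL replicates 1 to 3. The groups overlapped fully. Its log2 fold change was 0.01 with a 95% interval of −0.23 to 0.24 (adjusted p = 0.96, limma), that is between 0.855-fold and 1.18-fold, and it turned negative (−0.12) with libraries scaled to the same total. In FPKM the ratio of Bax to Bak1 was 1.28 ± 0.0969 in MPs and 2.59 ± 0.291 in APL progenitors (SD, n = 3 each). The locus given for Bak1 is shared with Ggnbp1, and that of Bad with Gpr137, so fragments of these could be divided between neighbours.

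The BH3-only members split into 2 that rose, 1 that fell and 2 that did not pass. Pmaip1 (chr18:66458604-66465558), which encodes NOXA, a selective binder of MCL1 and a p53 target, changed most of all members. It had 147, 99.0 and 92.9 scaled fragments over MP replicates 1 to 3 against 1057, 938 and 1153 over APL replicates 1 to 3. The lowest APL library stood several times above the highest MP library. The fit gave a log2 fold change of 3.23 ± 0.18 (SE) (adjusted p = 5.9e-07, limma), a 9.38-fold increase with a 95% interval of 7.09 to 12.4. Only 3.27% of genes tested rose by more.

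Bbc3 (chr7:16309583-16318334) encodes PUMA, a p53 target that binds all pro-survival proteins. Its values were 82.4, 72.4 and 124 scaled fragments over MP replicates 1 to 3 against 150, 182 and 165 over APL replicates 1 to 3. The groups did not overlap, but MP library 3 came near APL library 1. Its log2 fold change was 0.86 ± 0.22 (SE) (adjusted p = 0.0066, limma), a 1.81-fold increase, and it ranged from 0.70 without MP library 2 to 1.09 without MP library 3 when 1 library was left out. Its MP libraries varied the most among the members, with an SD of 29.7% of the mean.

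Bid (chr6:120893119-120916820), which links death receptors to mitochondria after cleavage by caspase-8, was the pro-death member that fell. It had 1960, 1789 and 1949 scaled fragments over MP replicates 1 to 3 against 1288, 1469 and 1430 over APL replicates 1 to 3, with no overlap. This came to a log2 fold change of −0.45 ± 0.08 (SE) (adjusted p = 9.0e-04, limma), a 1.36-fold decrease under the 1.5-fold threshold.

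Bcl2l11 (chr2:128126038-128162547), which encodes BIM, an activator of the effectors induced on loss of cytokines, had 685, 667 and 555 scaled fragments over MP replicates 1 to 3 against 653, 662 and 612 over APL replicates 1 to 3. The APL values lay within the range of the MP values. The log2 fold change of 0.02 had a 95% interval of −0.21 to 0.25 (adjusted p = 0.86, limma), and it was −0.11 with libraries scaled to the same total.

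Bad (chr19:6938070-6951893), whose protein is held inactive by phosphorylation downstream of growth factors, had 354, 356 and 482 scaled fragments over MP replicates 1 to 3 against 315, 329 and 363 over APL replicates 1 to 3. APL library 3 exceeded MP libraries 1 and 2, so the groups overlapped. The log2 fold change was −0.23 with a 95% interval of −0.55 to 0.09 (adjusted p = 0.18, limma), which leaves a fall to 0.683-fold possible. With libraries scaled to the same total it was −0.36 (adjusted p = 0.018, limma), which passes the test, and without MP library 3 it was −0.08 (adjusted p = 0.50, limma).

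**Figure D2:**
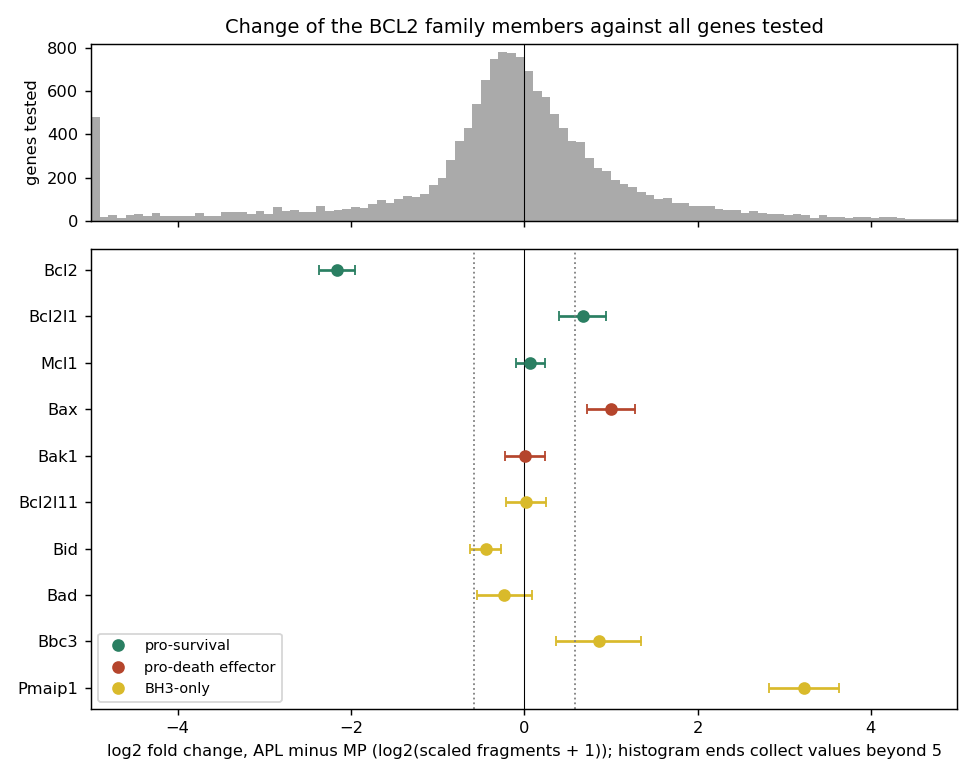
Log2 fold change of each member, APL minus MP, with its 95% interval (lower panel; dotted lines mark 1.5-fold) under the histogram of all 14595 genes tested (upper panel, number of genes per step of 0.1). Pmaip1 at 3.23 and Bcl2 at −2.16 lie toward the ends of the distribution, and the other 8 members between −0.45 and 1.00.

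Scaling moved these differences as a whole. With every library scaled to the same total, the median of all genes was lower by 0.13 on the log2 scale. Relative to the median of −0.10 over all genes tested, Mcl1, Bak1 and Bcl2l11, which did not pass the test, lay slightly above. For single members a two-sided exact permutation test gave p = 0.1 for each of the 6 members whose groups did not overlap, the smallest that 3 libraries against 3 allow.

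Levels of different genes can be compared only per length, so the order of the members is given in FPKM. In MPs, Bax (61.1 ± 6.98), Mcl1 (58.2 ± 3.71), Bak1 (47.8 ± 4.13) and Bid (35.7 ± 1.5) were the most abundant, followed by Bad (11.4 ± 1.55) and then Bcl2, Bcl2l1 and Bcl2l11 between 5.44 and 6.07. Bax and Mcl1 overlapped in their libraries, and so did Bcl2 with Bcl2l1, Bcl2l1 with Bcl2l11, and Bbc3 (2.11 ± 0.494) with Pmaip1 (1.59 ± 0.424). In APL progenitors Bax led alone at 124 ± 5.64 FPKM, and Pmaip1 (14.4 ± 1.23) had moved from the last place to the fifth. Bcl2 was last, and of the neighbours in this order only Bad (9.74 ± 0.719) and Bcl2l1 (9.02 ± 1.24) overlapped. Values are means ± SD of 3 libraries.

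The 3 pro-survival members together had 71.2, 66.1 and 72.2 FPKM over MP replicates 1 to 3 and 67.9, 70.4 and 73.2 over APL replicates 1 to 3. FPKM totals over all genes ran from 508977 to 603582 in MP libraries and from 598693 to 623163 in APL libraries, and were not equalized. The overlap of the pro-survival sums therefore holds for FPKM as deposited and was not tested as a share of each total. Mcl1 made up 83.2% ± 1.44 of these sums in MPs and 84.7% ± 1.59 in APL progenitors. Within the remainder, Bcl2 went from 8.71% ± 0.840 to 2.52% ± 0.296 of the sum and Bcl2l1 from 8.06% ± 0.911 to 12.8% ± 1.68 (SD, n = 3 each). The ratio of Bcl2l1 to Bcl2 was thus 0.929 ± 0.110 in MPs and 5.13 ± 1.00 in APL progenitors.

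The 7 pro-death members summed to 159, 157 and 179 FPKM over MP replicates 1 to 3 and to 226, 239 and 234 over APL replicates 1 to 3. The APL sums were higher in every library. Bax alone made up 36.9% ± 2.08 of the sum in MPs and 53.5% ± 2.22 in APL progenitors, and Pmaip1 0.970% ± 0.297 and 6.20% ± 0.644, whereas Bid went from 21.7% ± 1.42 to 11.4% ± 0.439. Pro-survival over pro-death FPKM came to 0.448, 0.421 and 0.403 over MP replicates 1 to 3 and to 0.301, 0.295 and 0.313 over APL replicates 1 to 3. Without Bax this ratio was 0.672 ± 0.0159 and 0.652 ± 0.0150, and the groups overlapped. These sums follow the most abundant transcripts and say nothing of protein.

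**Figure D3:**
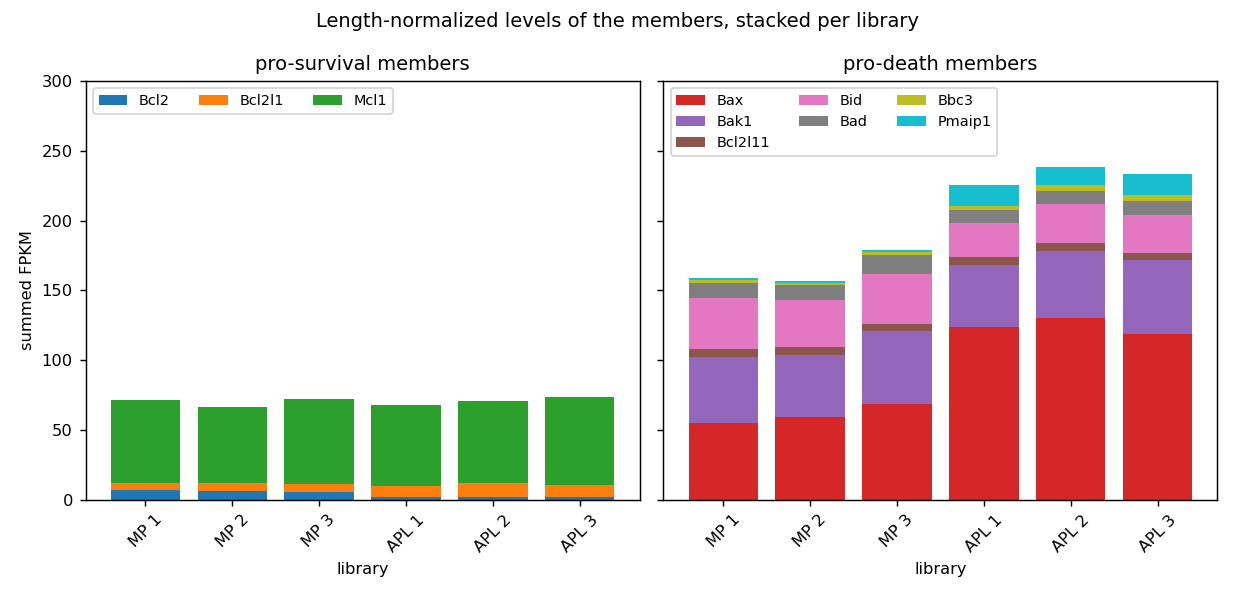
FPKM of the members as deposited, without equalizing the FPKM totals, stacked per library (bars start at 0). Pro-survival members are on the left and pro-death members on the right. The pro-survival stacks lie between 66.1 and 73.2 FPKM in all 6 libraries, while the pro-death stacks reach 226 to 239 FPKM in the APL libraries against 157 to 179 in the MP libraries.

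Each of the 21 pairs of a pro-survival with a pro-death member was compared within libraries as the log2 ratio of their FPKM. All 7 ratios with Bcl2 were lower in APL progenitors without overlap, with differences on the log2 scale between −1.35 (against Bid) and −4.99 (against Pmaip1). Bcl2 over Pmaip1 was 1.65, 2.16 and 2.09 over MP replicates 1 to 3 and −2.93, −2.93 and −3.20 over APL replicates 1 to 3, so the more abundant partner changed from Bcl2 to Pmaip1. Bcl2 over Bcl2l11 turned in the same way, from 0.162 ± 0.0639 to −1.61 ± 0.0928 (SD, n = 3 each).

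With Bcl2l1, 4 of 7 ratios were higher without overlap (against Bak1, Bcl2l11, Bid and Bad, by 0.66 to 1.10), 2 were lower (against Bax and Pmaip1) and that against Bbc3 overlapped. Bcl2l1 over Bax differed by −0.35 with both genes higher in APL progenitors. With Mcl1, the ratio to its partner Pmaip1 differed by −3.17 on the log2 scale, those to Bax and Bbc3 differed by −0.99 and −0.84, and those to Bid and Bad were higher by 0.46 and 0.26. Mcl1 over Bak1 and Mcl1 over Bcl2l11 overlapped between the groups and differed by 0.02 and 0.05. A two-sided exact permutation test gave p = 0.1 for each of the 18 pairs without overlap, the smallest possible with 3 libraries in each group, and 0.117 after adjustment over the 21 pairs, so none of them could pass.

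**Figure D4:**
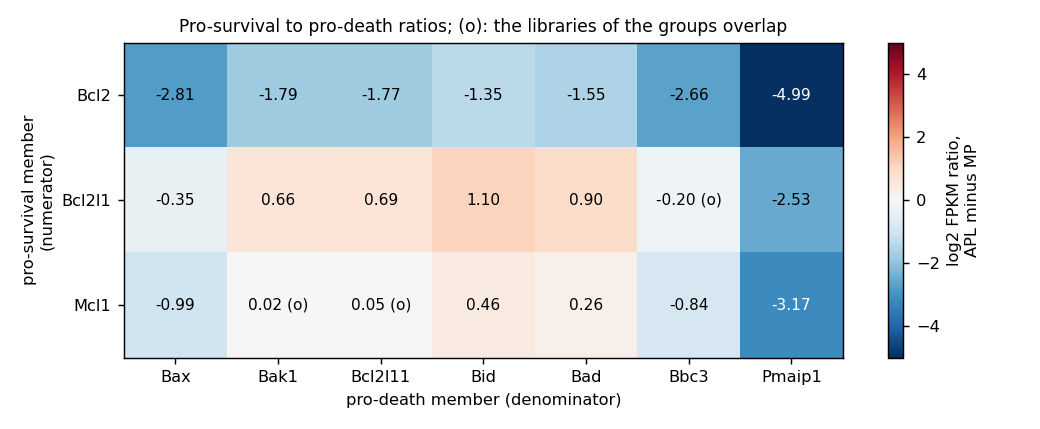
Difference between APL and MP means of the log2 FPKM ratio for the 21 pairs, pro-survival members in rows and pro-death members in columns, with (o) where the libraries of the groups overlap. The Bcl2 row is negative throughout (−1.35 to −4.99), the Pmaip1 column is the most negative, and the Bcl2l1 row holds both signs.

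Of the other pro-survival genes of the family, 5 of 7 listed were in the table and tested, and 4 were called higher and 1 lower. Bcl2l2, which encodes BCL-w, had 615, 612 and 603 scaled fragments over MP replicates 1 to 3 against 1750, 1787 and 1941 over APL replicates 1 to 3. Its libraries hardly varied within a group, and it rose 2.99-fold (log2 fold change 1.58, adjusted p = 2.2e-07, limma). The A1 genes Bcl2a1a, Bcl2a1b and Bcl2a1d, survival genes of granulocytes, were called higher with log2 fold changes of 2.46, 3.74 and 1.70. They are near-identical copies, so how their fragments divide is uncertain. The most abundant, Bcl2a1b, had 158 ± 16.7 scaled fragments in APL progenitors. In FPKM Bcl2a1b went from 0.858 ± 0.520 in MPs to 11.1 ± 1.91 in APL progenitors (SD, n = 3 each), where Bcl2l1 had 9.02 ± 1.24. Bcl2l12 was called lower, with a log2 fold change of −0.73. With Bcl2l2 alone added to the pro-survival sum, its ratio to the pro-death sum was 0.462 ± 0.0253 in MPs and 0.382 ± 0.0139 in APL progenitors (SD, n = 3 each). The groups did not overlap in this ratio. The A1 genes, also called higher, were not in this sum. A ratio with the A1 genes counted is not given here, and the separation may not hold with them. The size of the ratio depends on which family genes are counted. So does the separation, because the groups overlapped when Bax was left out.

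Of 10 other pro-death or BH3-bearing genes tested, 4 were called lower (2 without MP library 3) and 3 higher, and their median log2 fold change was 0.08, also with Bok at its bound. Bok, a further effector-like gene, had 21.5, 26.7 and 39.7 scaled fragments over MP replicates 1 to 3 and at most 1 fragment before scaling in each APL library, which makes it at least 8.93-fold lower against a limit of 3 fragments per library. Bik, called lower by the fit, held at most 5 fragments before scaling in any library, too few for a fold. Moap1, a modulator of BAX, and Bcl2l13, a mitochondrial relative, had log2 fold changes of −1.52 and −0.59. The genes called higher were Bcl2l14, Bmf, a BH3-only gene linked to the cytoskeleton, and Bnip3, a mitophagy receptor induced by hypoxia, with 1.56, 1.12 and 1.06. Becn1, an autophagy protein with a BH3 motif, rose by 0.24 without reaching 1.5-fold, and Bnip3l (−0.08) and Bcl2l15 (0.52) did not pass.

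Downstream of the mitochondrial pore, genes differed in both directions. Of 9 genes of the outer membrane and the factors released through it, Vdac1, a voltage-dependent anion channel, was the 1 called, with a log2 fold change of −0.61, and 5 did not pass the test. Vdac1 stayed under 1.5-fold without MP library 3 or without APL library 1. Of 9 genes of the apoptosome, caspases and their substrates, 4 were called lower and 1 higher. Apaf1, the scaffold that assembles with cytochrome c, rose from 2695 ± 153 to 5549 ± 50.7 scaled fragments, a log2 fold change of 1.04 (adjusted p = 1.7e-06, limma). Dffb, the nuclease that cleaves DNA in apoptosis, and Parp1, a caspase substrate, had −1.01 and −0.90.

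Of 8 inhibitor of apoptosis genes, 3 were called higher and 1 lower. The 3 were Naip2, Naip1 and Naip5, with log2 fold changes of 1.52, 0.93 and 0.91, which are related copies known mainly as inflammasome sensors. Birc5, which encodes survivin and is expressed in dividing cells, had −0.61 and likewise stayed under 1.5-fold without MP library 3 or without APL library 1. Xiap, which inhibits caspases directly and was singled out after its values were seen, had 0.27 and did not pass (adjusted p = 0.055, limma).

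Of 8 genes of the death receptor arm, which holds receptors, adaptors and regulators, 6 were called higher, against 21.7% of all genes tested. None was called lower. The list was chosen with earlier results of these data known, so this share describes the list and tests nothing. At 2-fold, 2 of the 8 were higher, against 2171 of the 14595 genes tested. The 6 included Cflar, an inhibitor of caspase-8 that was singled out after its values were seen. Its log2 fold change was 0.60 (adjusted p = 0.0012, limma). Fadd, an adaptor that was singled out after its values were seen, and Casp8 did not pass, and the median log2 fold change was 0.78 against −0.10 for all genes. Fas, which signals to caspase-8, had 15.9, 12.4 and 21.6 scaled fragments over MP replicates 1 to 3 against 548, 506 and 557 over APL replicates 1 to 3. It was low in all MP libraries and higher in every APL library without overlap, a 31.2-fold increase (log2 fold change 4.96, standard error 0.21, adjusted p = 1.4e-07, limma). Tnfrsf1a, the main TNF receptor, and its adaptor Tradd had 1.40 and 0.97, the latter being a gene of chromosome 8, whose genes were shifted upward by a median of 0.61. Casp8, which cleaves BID and was also singled out with its values known, had 0.08 with a 95% interval of −0.08 to 0.23 (adjusted p = 0.34, limma).

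Of 12 regulators of BCL2 family genes and proteins tested, 5 were called lower and 2 higher. Stat5a and Stat5b, which carry cytokine signals to Bcl2l1 and Mcl1, fell with log2 fold changes of −1.22 and −0.92, and Foxo3, a transcription factor of Bcl2l11 and Bbc3, with −0.91. Trp53, singled out after its values were seen because Bax, Bbc3 and Pmaip1 are known targets of p53, fell from 5654 ± 605 to 3492 ± 172 scaled fragments, a log2 fold change of −0.69 (adjusted p = 1.3e-04, limma). These are RNA levels and do not give p53 protein or activity, and a link to the 3 members was not tested. Atf4, a stress factor that acts on Pmaip1 and Bbc3, and Ywhaz, a 14-3-3 protein that binds BAD, rose with 1.13 and 1.00. Both lie on chromosome 15, whose genes were shifted upward by a median of 0.58. Over all pathway lists, 16 of 61 genes tested were called lower and 19 higher, and the median log2 fold change was 0.08 against −0.10 for all genes.

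**Figure D5:**
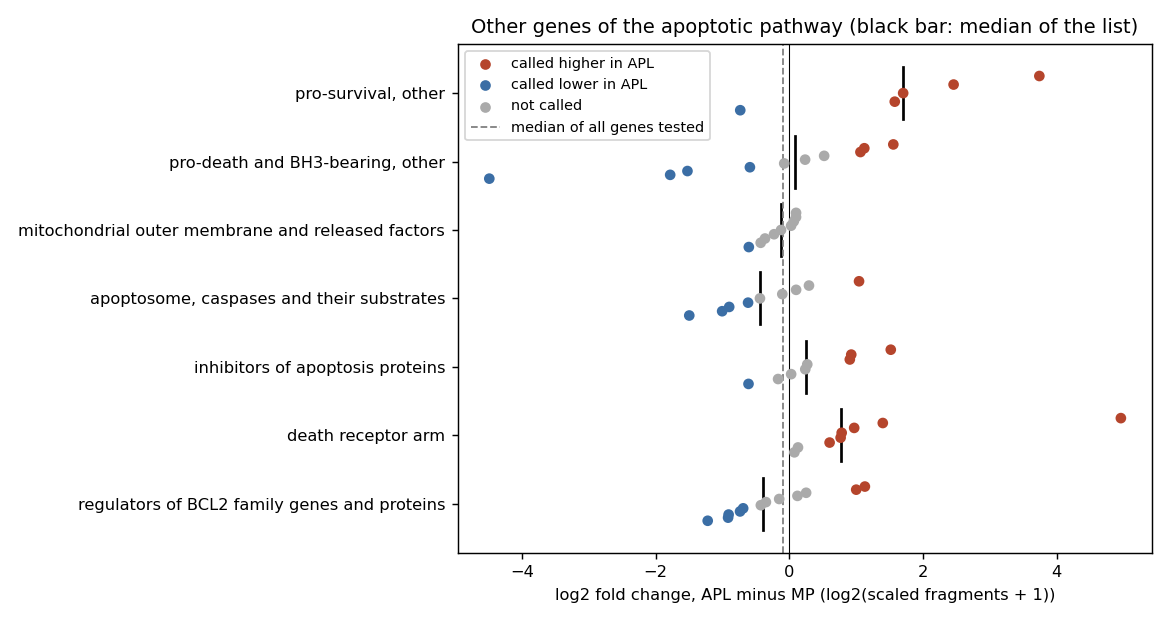
Log2 fold change, APL minus MP, of each tested gene in 7 lists of the apoptotic pathway, coloured by call, with a black bar at the median of each list and a dashed line at the median of all genes tested. The death receptor list has its median at 0.78 and holds Fas at 4.96, and the apoptosome list has its median at −0.44.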

How the data were processed

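RNA of 6 sorted mouse BM samples was sequenced after TruSeq preparation. The submitters' processing notes name CASAVA 1.8, TopHat2 2.0.6 and mm10, whereas the methods of the study name STAR, mm9 and HTSeq-count. The authors deposited FPKM and a signal of estimated fragments per gene, scaled by a factor of each library. Between 89.3% and 90.2% of values up to 20 fragments were whole multiples (tolerance 0.01) of 1 fragment, so no count test was applied. Deposited starts count from 0 and were raised by 1 (7054 of 16361 genes then match RefSeq of GRCm38).

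Fold changes and p-values came from limma 3.58.1 (R 4.3.3), fitted to log2(scaled fragments + 1) by lmFit and moderated by eBayes with an intensity trend, a scale that understates changes of low genes. Genes with at least 1 in 3 of the 6 libraries entered. Exact permutation tests and figures used Python 3.11.15 and matplotlib 3.10.9. The fit was tested on simulated data. The members and lists were chosen with earlier results of these data known. Named genes are all members and other family genes, and up to 3 called genes per direction in each pathway list, of which 1 is not reported here. Alternatives covered filters, pseudocounts, scalings, FPKM, variance models, call rules, the library number as a block, and each library left out.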

Additional observations from a re-analysis of the deposited data

How the results depend on the processing

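Of the 180 member fold changes recomputed under alternatives, 163 kept their direction and call. Bcl2l1 passed the test but not 1.5-fold with the same total (0.54), voom (0.55) and without APL library 2 (0.57 to 0.76 over all libraries left out). Mcl1, Bak1 and Bcl2l11, without a call, changed sign, while Bid and Bad were negative throughout. Mcl1 had −0.0437 with quantile normalization, −0.0583 with the same total and −0.0584 with voom. Bak1 had −0.12 with the same total and with voom, and −0.0686 to 0.0953 with 1 library left out. Bcl2l11 had −0.0067 and −0.0065 with FPKM at pseudocounts 0.1 and 1, −0.11 with the same total and with voom, and −0.0734 to 0.0787 with 1 library left out. At the adjusted p alone 2 members were lower, and at 2-fold 2 were higher. With 1 library left out, 3 to 4 members were called higher. With FPKM and a pseudocount of 1, 2205 genes were called lower, and 5443 at the adjusted p alone, against 3558. Of the pair ratios, Mcl1 over Bak1 (−0.0189 to 0.0511) and Mcl1 over Bcl2l11 (−0.0392 to 0.175) changed sign with a library left out.

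List counts that moved were as follows. At 2-fold, 0 other pro-survival, 0 membrane, 2 apoptosome, 0 inhibitor and 1 regulator genes were lower, and 1 inhibitor and 2 death receptor genes higher. At the adjusted p alone, 4 membrane genes were lower and 2 apoptosome genes higher. With FPKM and a pseudocount of 1, 1 other pro-death gene was lower and 1 higher, and 0 inhibitor genes were lower with either pseudocount. Median ratio scaling left 0 membrane and 0 inhibitor genes lower. Without MP library 3, 2 other pro-death genes were lower (2 to 4 over all libraries left out), and 0 membrane and 0 inhibitor genes without it or APL library 1 (0 to 1). The causes were not tested.

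A replicate block on the library numbers gave 3589 genes called lower and 3164 higher, and counts of members stayed at 1 and 4. The correlation of deviations of same-numbered libraries ran from −0.133 to 0.261, so the numbers were not taken as pairs. At this depth genes with up to 3 fragments cannot be told from absence.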
